A study of Mus musculus with 6 samples.

Results

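The hemoglobin and red cell genes were followed in RNA from mouse hearts. The set is the 8 gene symbols Hba-a1, Hba-a2, Hbb-bs, Hbb-bt, Alas2, Slc4a1, Ahsp and Epb42, selected on their levels in these 6 libraries, which were already known. Of the 8 genes, 7 have a row among the 45777 genes of the table, and all 7 passed the filter on low values, a mean count of 10 or more, that 18328 genes passed. Ahsp was not analysed here. Because the choice of genes rests on these same libraries, the levels of the 7 genes are given as a description without a test.

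The hearts came from female BALB/c nude mice (CAnN.Cg-Foxn1nu/Crl, labelled 6 weeks of age), which lack a normal thymus and in every group carried subcutaneous tumours grown from MDA-MB-231, a human breast cancer line. From day 7 the mice received vehicle (Control), ginsenoside Rh2, a ginseng compound, at 20 or 30 mg/kg daily (Rh2-20 mg/kg and, at the higher dose, Rh2-30 mg/kg), the anthracycline doxorubicin at 2 mg/kg every other day to a cumulative 22 mg/kg (Dox), or Dox with either Rh2 dose (Rh2-20 mg/kg + Dox or else Rh2-30 mg/kg + Dox), over 3 weeks. Each condition had 1 library made from 5 pooled hearts, so the spread between mice was not measured. The study asked how Rh2 alters the heart's response to Dox, and the sources used here do not say whether blood was flushed from the hearts.

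Hemoglobin carries oxygen in red cells as a tetramer of alpha chains (Hba-a1, Hba-a2) and beta chains (Hbb-bs, Hbb-bt), each holding a heme. Alas2 makes the first, rate-limiting step of heme synthesis in erythroid cells, Slc4a1 encodes band 3, the anion exchanger of the red cell membrane, and Epb42 encodes protein 4.2, which ties band 3 to the membrane skeleton. Mature red cells of mammals have no nucleus, and the youngest of them, the reticulocytes, still carry RNA, mostly for globins. In bulk tissue a smaller number of red cells and less RNA per red cell cannot be told apart.

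The libraries held 86164411 to 90621002 counts, so that counting error is small for the globins and large only for Epb42. Markers of heart muscle such as Myh6, a heart myosin heavy chain, had the highest sum of the marker lists in every library. Over 8 genes it was 19940 to 27710 normalized CPM (counts relative to the scaled size of the library), while 5 liver markers summed to between 1.39 and 1.68. The Rh2-30 mg/kg library stood apart in several lists. It had the lowest heart muscle sum and the highest lung sum (8.69 over 5 genes, against 0.466 to 1.64 elsewhere), B cell sum (13.9 over 8 genes, against 1.52 to 4.33) and macrophage sum (588 over 8 genes, against 263 to 497), so ratios to this library are given beside those to Control. Its lung sum was mostly 1 gene, Scgb1a1, with 730 of 824 counts.

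The alpha genes lie on chromosome 11, Hba-a1 at chr11:32283672-32284486 and Hba-a2 at chr11:32296492-32297310, and the beta genes lie on chromosome 7, Hbb-bt at chr7:103812524-103813923 and Hbb-bs at chr7:103826523-103827928 (GRCm38.p6, the assembly behind mm10). Alas2 is at chrX:150547417-150570622, Slc4a1 at chr11:102348820-102365281 and Epb42 at chr2:121017891-121036877. In the GENCODE transcripts the coding parts of Hba-a1 and Hba-a2, 429 bases each, differ at 1 base, and 56.5% of the 100-base windows of the Hba-a1 transcript also occur in Hba-a2. Those of Hbb-bs and Hbb-bt, 444 bases each, likewise differ at 1 base, with 62.6% of windows shared. Reads could therefore be split between the members of a pair by the authors' tools, and the sums of each pair are given with the single genes. Strain adds a further limit, since BALB/c mice carry another beta-globin haplotype than the C57BL/6 reference. Its genes, Hbb-b1 and Hbb-b2, were not analysed here.

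The 250 bases before the annotated start of the genes are shown because the 7 genes are known for shared erythroid control, in which GATA1 and KLF1 bind GATA and CACCC motifs. RefSeq windows matched 6 of the 7 genes, without Slc4a1. Capitals mark every match on either strand to GATAA (core of GATA sites), CACCC (core of KLF sites), CCAAT and TATAA.
Hba-a1, chr11:32283422-32283671, plus strand: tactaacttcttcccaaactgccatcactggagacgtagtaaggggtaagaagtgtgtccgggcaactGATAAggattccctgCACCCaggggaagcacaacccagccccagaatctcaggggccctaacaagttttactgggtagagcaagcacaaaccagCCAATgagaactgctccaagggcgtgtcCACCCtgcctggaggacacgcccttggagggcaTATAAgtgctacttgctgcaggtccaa
Hbb-bs, chr7:103827929-103828178, minus strand: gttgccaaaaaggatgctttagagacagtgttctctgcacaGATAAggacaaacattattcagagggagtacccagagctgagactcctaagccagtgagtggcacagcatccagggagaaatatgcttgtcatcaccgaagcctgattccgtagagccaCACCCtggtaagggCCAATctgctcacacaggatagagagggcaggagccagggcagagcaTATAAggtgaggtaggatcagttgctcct
Hbb-bt, chr7:103813924-103814173, minus strand: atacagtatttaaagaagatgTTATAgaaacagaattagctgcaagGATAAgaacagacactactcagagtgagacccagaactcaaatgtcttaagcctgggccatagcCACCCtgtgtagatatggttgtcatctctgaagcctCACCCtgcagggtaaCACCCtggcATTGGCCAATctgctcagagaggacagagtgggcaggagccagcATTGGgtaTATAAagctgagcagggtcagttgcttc
Alas2, chrX:150547167-150547416, plus strand: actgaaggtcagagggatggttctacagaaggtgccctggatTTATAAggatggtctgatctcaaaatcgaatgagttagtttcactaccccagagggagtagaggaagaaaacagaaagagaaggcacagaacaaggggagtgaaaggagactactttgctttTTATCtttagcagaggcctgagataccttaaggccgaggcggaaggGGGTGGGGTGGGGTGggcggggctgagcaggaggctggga
Epb42, chr2:121036878-121037127, minus strand: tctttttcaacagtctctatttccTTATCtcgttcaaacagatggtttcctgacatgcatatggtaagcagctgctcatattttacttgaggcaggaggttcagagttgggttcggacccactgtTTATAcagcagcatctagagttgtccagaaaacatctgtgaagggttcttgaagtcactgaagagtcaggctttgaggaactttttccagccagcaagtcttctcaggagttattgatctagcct
GATAA was found in all 6 windows and in 22.6% of the 32851 mouse promoter windows of the same length. TATAA was likewise in 6 of 6, against 22.8%, CACCC in 5 of 6, against 52.0%, and CCAAT in 4 of 6, against 33.8%. Epb42 was the window without CACCC, and neither Epb42 nor Alas2 held CCAAT. On the printed strand of the 4 globin windows TATAA began 27 to 30 bases before the start, and CCAAT began 75 to 91 bases before it. Hbb-bt held further matches to both on the other strand. Hba-a2 is not printed because its 300-base RefSeq window, which also takes in 50 bases after the start, shares a run of 297 bases with that of Hba-a1. In Alas2 the matches to TATAA on both strands overlap, and in Hbb-bt a CCAAT follows directly on its reverse. These matches are letters in a window, and the binding of no factor was measured.

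All 4 adult globin genes had their highest count in the Dox library and their lowest in the Rh2-30 mg/kg + Dox library. Their sum was 283825 counts in Control, 222044 with Rh2 at 20 mg/kg and 291850 with Rh2 at 30 mg/kg, and, among the libraries with Dox, 817476 with Dox alone, 503446 with Rh2 added at 20 mg/kg and 139369 with Rh2 added at 30 mg/kg. As a share of all counts this came to 0.327%, 0.248%, 0.333%, 0.949%, 0.561% and 0.154% in the same order. The 3 libraries with Dox thus held the 2 highest sums and the lowest, and the groups with and without Dox overlap, as they do for each of the 7 genes (0 of 7 without overlap, against 17% of all tested genes). After scaling by TMM factors (normalized counts), the highest sum was 6.06 times the lowest.

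For the alpha chain, Hba-a1 had 99346 counts in Control, 77286 with Rh2 at 20 mg/kg and 100982 with Rh2 at 30 mg/kg, and, among the libraries with Dox, 273474 with Dox alone, 178496 with Rh2 added at 20 mg/kg and 49673 with Rh2 added at 30 mg/kg. Its near-identical neighbour Hba-a2 had 78892, 61640, 82628, 209182, 139373 and 36574 counts in that order. Both genes kept the same order of libraries. The pair summed to 178238 counts in Control, to 482656 in Dox and to 86247 in Rh2-30 mg/kg + Dox.

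For the beta chain, Hbb-bs had 72575 counts in Control, 56977 with Rh2 at 20 mg/kg and 74682 with Rh2 at 30 mg/kg, and, among the libraries with Dox, 237261 with Dox alone, 131724 with Rh2 added at 20 mg/kg and 37010 with Rh2 added at 30 mg/kg. Hbb-bt, the beta gene with fewer assigned counts, had 33012, 26141, 33558, 97559, 53853 and 16112 counts. Both were highest in Dox and lowest in Rh2-30 mg/kg + Dox, and at 30 mg/kg of Rh2 without Dox both were close to Control.

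Alas2, the heme synthesis enzyme, spanned a wider range than the globins. It had 16052 counts in Control, 12391 with Rh2 at 20 mg/kg and 19275 with Rh2 at 30 mg/kg, and, among the libraries with Dox, 64799 with Dox alone, 36857 with Rh2 added at 20 mg/kg and 4645 with Rh2 added at 30 mg/kg. Its normalized level in Dox was 14.4 times that in Rh2-30 mg/kg + Dox, whereas the 4 globins differed 5.69 to 6.63 times between the same libraries.

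The membrane genes were far less abundant. Slc4a1 had 1797 counts in Control, 942 with Rh2 at 20 mg/kg and 2078 with Rh2 at 30 mg/kg, and, among the libraries with Dox, 4228 with Dox alone, 1795 with Rh2 added at 20 mg/kg and 192 with Rh2 added at 30 mg/kg. Its highest normalized level was 22.8 times its lowest, the widest range of the 7 genes (22.7 times in the ratios below, which add a prior count of 0.5). Epb42 had 132, 98, 141, 129, 61 and 13 counts in that order and was the only one of the 7 that was not highest in Dox. The other 6 were, as were 18.8% of all tested genes.

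**Figure D1:**
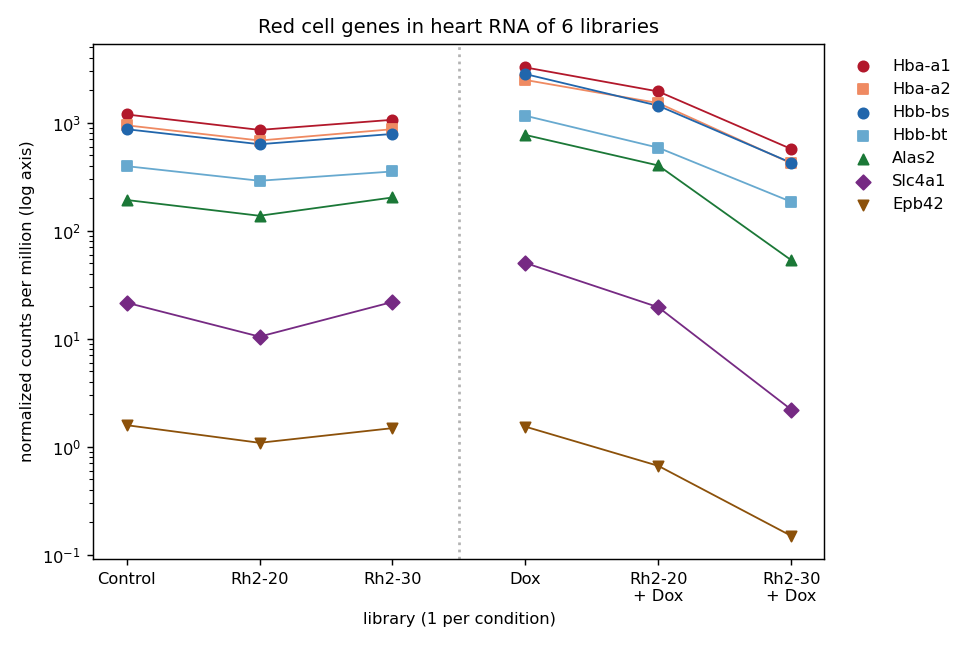
Normalized CPM (log axis) of the 7 genes in the 6 libraries, 1 point per gene and library, with lines joining the 3 libraries without Dox and the 3 with Dox. Among the libraries with Dox all 7 genes step down from Dox through Rh2-20 mg/kg + Dox to Rh2-30 mg/kg + Dox, and the lines of Alas2 and Slc4a1 drop more than those of the globins.

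Per kilobase of transcript (FPKM, the authors' length-scaled value), the order of the genes was Hba-a1, Hba-a2, Hbb-bs, Hbb-bt, Alas2, Slc4a1 and Epb42 in each library. In Control these FPKM levels were 1581, 1247, 1010, 466, 72.5, 3.51 and 0.298. Hba-a2 and Hbb-bs were level in Dox, at 3329 and 3327 FPKM, whereas Hba-a2 stood above Hbb-bs in the other 5 libraries. Alas2 was lowest at 20.0 FPKM in Rh2-30 mg/kg + Dox and highest at 296 FPKM in Dox. Slc4a1 lay between 0.357 and 8.32 FPKM, and Epb42 never passed 0.311 FPKM. The libraries were made by RNA capture, and the part of capture in levels between genes was not tested.

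Dox alone was set against Control to see how the red cell genes stood after the anthracycline. Of the 7 genes, 6 were at least 2-fold higher in the Dox library and none was lower to that extent, where 5.43% of all tested genes were that much higher and 3.58% that much lower. Alas2 was 4.0-fold higher (log2 ratio 2.00, counting interval 1.98 to 2.03), Hbb-bs 3.24-fold, Hbb-bt 2.93-fold, Hba-a1 2.73-fold, Hba-a2 2.63-fold and Slc4a1 2.33-fold. Epb42 had a log2 ratio of -0.05 with an interval of -0.41 to 0.32, so a difference was not detectable at its depth. The median log2 ratio was 1.45 over the 7 genes and -0.01 over all genes tested. These 95% intervals come from the exact conditional distribution of the pair of counts, they cover counting error only, and the pair of libraries gives no test of the condition.

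With Rh2 at 20 mg/kg in both libraries, the log2 Dox ratio was again above 0 in 6 of the 7 genes. Against Rh2-20 mg/kg, 5 genes were at least 2-fold higher in Rh2-20 mg/kg + Dox (4.09% of all genes) and none was lower to that extent (2.87%). The log2 ratios were 1.55 for Alas2, 1.18 for Hbb-bs, 1.18 for Hba-a1, 1.15 for Hba-a2, 1.02 for Hbb-bt and 0.90 for Slc4a1. Epb42 was lower, with a log2 ratio of -0.71 (-1.20 to -0.23).

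At Rh2 30 mg/kg the log2 Dox ratio was below 0 for all 7 genes, the opposite direction for all but Epb42. Against Rh2-30 mg/kg, 4 of the 7 genes were at least 2-fold lower in Rh2-30 mg/kg + Dox (12.1% of all genes) and none was that much higher (2.4%). The log2 ratio was -3.31 for Slc4a1 (-3.53 to -3.10), -3.26 for Epb42 (-4.26 to -2.49), -1.93 for Alas2 (-1.97 to -1.88) and -1.05 for Hba-a2. It was -0.93 for Hbb-bt, -0.90 for Hba-a1 and -0.89 for Hbb-bs, just inside the 2-fold line. With totals of all counts in place of TMM factors all 7 genes were past that line, a choice that moved these ratios by up to 0.17 on the log2 scale (the Rh2-30 mg/kg library had the highest TMM factor, 1.08).

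Other cell markers were also lower in this pair of libraries. At least 2-fold lower (12.1% of all genes) were 8 of 8 B cell markers (median log2 ratio -2.92), 10 of 12 platelet markers (-1.44) and 7 of 8 macrophage markers (-1.41). Both tested lung markers were as well (-3.2), Scgb1a1 with 16 counts against 730 and Ager with 31 against 71. The 8 heart muscle markers were all higher (0.67). The median was -1.05 over the 7 red cell genes and -0.03 over all genes tested. With Control as the reference for Rh2-30 mg/kg + Dox, 6 of 8 B cell markers (-1.41), 1 of 12 platelet markers (-0.16) and 1 of 8 macrophage markers (-0.61) were at least 2-fold lower. So were all 7 red cell genes and 6.85% of all genes. The part of these cells in the red cell values was not tested.

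**Figure D2:**
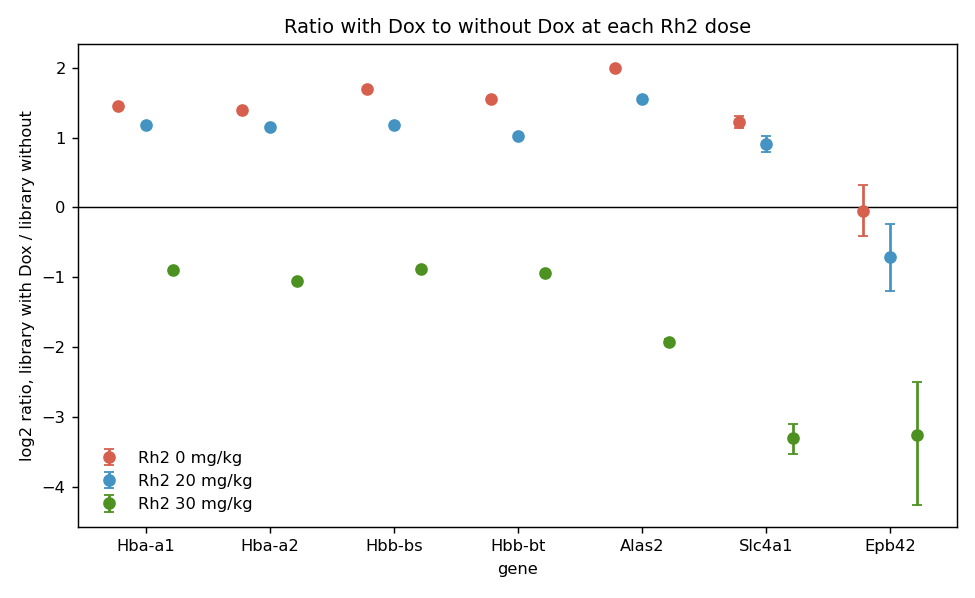
Log2 ratio of normalized counts between the library with Dox and the library without Dox at Rh2 doses of 0, 20 and 30 mg/kg, for each of the 7 genes, with bars for the 95% counting interval (smaller than the symbol for the globins). At 0 and 20 mg/kg the points of 6 genes lie between 0.90 and 2.00, and at 30 mg/kg all 7 lie between -3.31 and -0.89.

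Among the 3 libraries with Dox, all 7 genes were highest in Dox, intermediate in Rh2-20 mg/kg + Dox and lowest in Rh2-30 mg/kg + Dox, an order held by 22.6% of all tested genes. Rh2-20 mg/kg + Dox stood 1.64- to 2.57-fold below Dox, from Hba-a2 to Slc4a1, and 2 genes, Slc4a1 and Epb42, were at least 2-fold lower (3.44% of all genes, against 3.05% that much higher). Rh2-30 mg/kg + Dox stood 5.69-fold below Dox for Hba-a1, 5.91-fold for Hba-a2, 6.63-fold for Hbb-bs, 6.26-fold for Hbb-bt, 14.4-fold for Alas2, 22.7-fold for Slc4a1 and 9.92-fold for Epb42. All 7 genes were thus at least 2-fold lower there, against 7.35% of all genes (2.74% were that much higher), with a median log2 ratio of -2.73 beside -0.03 over all genes tested.

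The Rh2-30 mg/kg + Dox library also stood below Control. All 7 genes were at least 2-fold lower than in Control (6.85% of all genes, against 4.06% that much higher), the globins by 2.05- to 2.25-fold, Alas2 by 3.6-fold, Slc4a1 by 9.74-fold and Epb42 by 10.2-fold. All 7 had their lowest level of the 6 libraries there, as had 23.1% of all tested genes. In Rh2-20 mg/kg + Dox the globins were 1.48- to 1.65-fold above Control and Alas2 was 2.09-fold above it (5.11% of all genes were at least 2-fold higher). Slc4a1 was close to Control, with a log2 ratio of -0.14 (-0.23 to -0.04), and Epb42 was 2.37-fold lower (3.64% of all genes).

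Without Dox the levels varied less. The globins were 1.37- to 1.39-fold and Alas2 1.40-fold lower in Rh2-20 mg/kg than in Control. Slc4a1 was 2.06-fold lower, the only gene of the 7 past 2-fold there (2.8% of all genes), and none was 2-fold higher (3.31%). Between Rh2-30 mg/kg and Control no gene of the 7 reached 2-fold, where 8.46% of all genes were that much higher and 1.65% that much lower. The log2 ratios lay between -0.16 and 0.08, and those of the 4 globins and Epb42 turned from below to above 0 with totals of all counts as the scale, so no direction is given for them.

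The make-up of the globin RNA varied less than its amount, though reads shared within a pair could be split by the authors' tools. Hba-a1 made up 55.0% to 57.6% of the alpha pair in the 6 libraries, lowest in Rh2-30 mg/kg (exact binomial interval 54.8% to 55.2%) and highest in Rh2-30 mg/kg + Dox (57.3% to 57.9%). Hbb-bt made up 31.3% of the beta pair in Control, 31.5% with Rh2 at 20 mg/kg and 31.0% with Rh2 at 30 mg/kg, and, among the libraries with Dox, 29.1% with Dox alone, 29.0% with Rh2 added at 20 mg/kg and 30.3% with Rh2 added at 30 mg/kg. Each of the 3 libraries with Dox had a lower share than any of the 3 without. Within the alpha and the beta pair alike, the split of reads rests on the authors' tools. The beta shares are of counts assigned to the reference genes, while BALB/c mice carry another beta-globin haplotype. The part of the split or of the haplotype in these shares was not tested. The alpha genes made up 59.0% of adult globin counts in Dox and 61.9% to 63.1% in the other 5 libraries. Per length, the ratio of alpha to beta FPKM was 1.64 in Dox and 1.84 to 1.94 elsewhere. The part of RNA capture in the size of this ratio was not tested.

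Relative to the globins the other red cell genes did not keep a fixed proportion. Alas2 had 56.6 counts per 1000 adult globin counts in Control, 55.8 with Rh2 at 20 mg/kg and 66.0 with Rh2 at 30 mg/kg, and, among the libraries with Dox, 79.3 with Dox alone, 73.2 with Rh2 added at 20 mg/kg and 33.3 with Rh2 added at 30 mg/kg. It was thus highest in the library with the most globin counts and lowest in the one with the fewest. Slc4a1 had 6.33, 4.24, 7.12, 5.17, 3.57 and 1.38 counts per 1000 globin counts in that order. Epb42 had 0.465, 0.441 and 0.483 without Dox and 0.158, 0.121 and 0.0933 with Dox. The Epb42 values with Dox (highest interval bound 0.188) did not overlap those without (lowest bound 0.358). Of the 6 measures of make-up, 3 kept the libraries with and without Dox apart, namely this ratio and the shares of Hba-a1 and Hbb-bt. These were picked out after their values were seen, and 17% of all tested genes kept the same libraries apart by level.

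**Figure D3:**
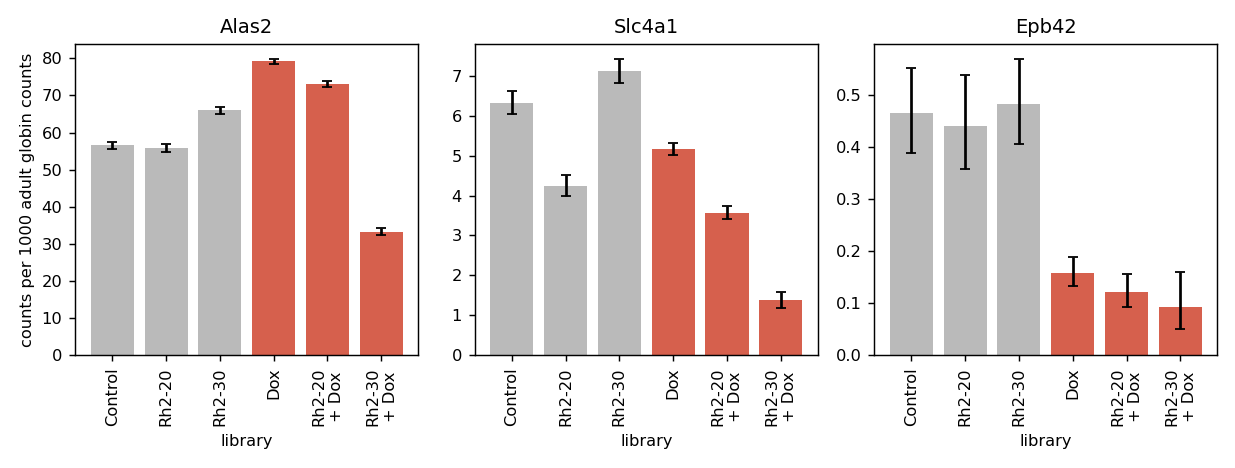
Counts of Alas2, Slc4a1 and Epb42 per 1000 adult globin counts in each library, grey without Dox and red with Dox, with 95% counting intervals as bars. Alas2 runs from 33.3 to 79.3, Slc4a1 from 1.38 to 7.12, and Epb42 stands at 0.441 to 0.483 without Dox and 0.0933 to 0.158 with Dox.

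Tests across libraries were made on all genes for the factors that the design repeats. Between the 3 libraries with Dox and the 3 without, edgeR's quasi-likelihood test called 5 of 18328 genes (0.0273%). None of these 5 was among the 56 related genes below, and 1852 genes (10.1%) had an unadjusted p under 0.05. Between the 4 libraries with Rh2 and the 2 without, with Dox as a term, it called 0 of 18328 (0%), with 1602 (8.74%) at an unadjusted p under 0.05. DESeq2's Wald test called 425 and 242 genes. The count of 5 with Dox became 14 without the Rh2-30 mg/kg + Dox library, 3 without Rh2-30 mg/kg and 0 without any of the other 4. The 7 genes were chosen on their levels in these libraries, so their fitted values are a description. Their median log2 fold change was 0.89 with Dox, beside -0.01 for all genes, and -0.997 with Rh2, beside 0.01. The Dox value for Hba-a1, 0.89, was 1.32 without the Rh2-30 mg/kg + Dox library and 0.28 without the Dox library, and that of Slc4a1 went from 0.42 to 0.96 and to -0.72. A fitted difference over the 3 libraries with Dox is therefore a mean over values of opposite direction. The Rh2 value of Hbb-bs, -0.997, was -0.295 without the Dox library, -0.591 without Rh2-30 mg/kg + Dox and -1.6 without Control.

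Other genes of the red cell were grouped into 6 lists, of which 56 genes were tested. None passed the adjusted threshold of 0.05 in either comparison. At an unadjusted p under 0.05 were 5 with Dox (10.1% of all tested genes) and 2 with Rh2 (8.74%). With DESeq2's Wald test 0 were called with Dox and 1 with Rh2, Cd163, the macrophage receptor for hemoglobin bound to haptoglobin, with a log2 fold change of 0.65. The lists are described by their ratios between single libraries, which carry no test.

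Among the 5 other globin genes tested, the alpha-like theta genes Hbq1b and Hbq1a were, like the adult globins, highest in Dox and lowest in Rh2-30 mg/kg + Dox. Hbq1b had 84 counts in Control, 71 with Rh2 at 20 mg/kg and 86 with Rh2 at 30 mg/kg, and, among the libraries with Dox, 401 with Dox alone, 138 with Rh2 added at 20 mg/kg and 14 with Rh2 added at 30 mg/kg. Hbq1a had 28, 52, 22, 168, 30 and 19 counts in that order, so its lowest value was close to that of Rh2-30 mg/kg. Unlike the globins, it was near Control in Rh2-20 mg/kg + Dox. Mb, the oxygen-binding myoglobin of muscle, lay between 48434 and 64228 counts, and its highest value was in Rh2-30 mg/kg + Dox, where the adult globins were lowest. Cygb, cytoglobin of fibroblast-like cells, lay between 1162 and 1766. The embryonic globins were almost undetected, as Hba-x had 0 counts in all 6 libraries, Hbb-bh1 had 16 in Dox, a further 12 in Rh2-20 mg/kg + Dox and 0 elsewhere, and Hbb-y had 17, 17 and at most 6.

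Of 14 tested red cell membrane genes none was at least 2-fold higher in Dox than in Control (5.43% of all genes). In Rh2-30 mg/kg + Dox, 8 were at least 2-fold lower than in Dox (7.35% of all genes). Sptb, a beta spectrin, and Ank1, an ankyrin, are also made in muscle. They were higher in Rh2-30 mg/kg + Dox than in Dox, with 16864 and 8312 counts against 10963 and 6026. Picked after its values were seen, Rhag, of the Rh complex, had 117 counts in Control, 52 with Rh2 at 20 mg/kg and 70 with Rh2 at 30 mg/kg. Among the libraries with Dox it had 118 with Dox alone, 85 with Rh2 added at 20 mg/kg and 0 with Rh2 added at 30 mg/kg. Rhd, of the same list, went the other way, with 324 counts in Control, 339 with Dox alone and 516 with Rh2 added at 30 mg/kg.

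Of the 10 tested heme synthesis genes 2 had the pattern of Alas2 and 8 stayed under 2-fold from Dox to Control and from Rh2-30 mg/kg + Dox to Dox. Fech, which inserts iron into the heme ring at the last step, had 4853 counts in Control, 5077 with Rh2 at 20 mg/kg and 6107 with Rh2 at 30 mg/kg, and, among the libraries with Dox, 13131 with Dox alone, 9145 with Rh2 added at 20 mg/kg and 4176 with Rh2 added at 30 mg/kg. It and the mitochondrial iron importer Slc25a37 were the 2 genes at least 2-fold higher in Dox than in Control (5.43% of all genes). Both were also the 2 that were at least 2-fold lower in Rh2-30 mg/kg + Dox than in Dox (7.35% of all genes). Alas1, the enzyme that takes the place of Alas2 outside the erythroid line, stayed between 8506 and 11369 counts, and Alad, of the following step, between 5705 and 6389.

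Of the 9 tested erythroid regulators, 4 (Gata1, Nfe2, Gfi1b and Hemgn) were at least 2-fold higher in Dox than in Control (5.43% of all genes). These 4 had few counts, in Control and Dox 8 and 58 for Gata1, 37 and 283 for Nfe2, 0 and 43 for Gfi1b, and 54 and 146 for Hemgn. Nfe2 had its most counts, 322, in Rh2-20 mg/kg + Dox. The 3 regulators with the most counts were not among these 4. Tfrc, the transferrin receptor that brings iron into cells, had 14954 counts in Control and 9413 to 12929 in the other libraries, and the nuclear factors Zfpm1 and Bcl11a lay between 1062 and 1418 and between 193 and 332. Gata1, the GATA factor of red cell and platelet precursors, had 58 counts in Dox and the same number in Rh2-20 mg/kg + Dox, against 4 to 8 in the other 4 libraries. Scaled to library size it had 0.690 and 0.633 normalized CPM in these 2 libraries, while each globin was at least 1.64-fold lower in the second of them. Klf1, the KLF factor of the red cell line, had at most 6 counts.

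Of the 10 tested genes kept or made late in red cell life, 7 stepped down from Dox through Rh2-20 mg/kg + Dox to Rh2-30 mg/kg + Dox, the order of 22.6% of all tested genes. Of the 10, 5 were at least 2-fold higher in Dox than in Control (5.43% of all genes). In Rh2-30 mg/kg + Dox, 6 were at least 2-fold lower than in Dox (7.35% of all genes). Bnip3l, which serves the removal of mitochondria from reticulocytes, had 11273 counts in Control, 10802 with Rh2 at 20 mg/kg and 13771 with Rh2 at 30 mg/kg, and, among the libraries with Dox, 23939 with Dox alone, 18371 with Rh2 added at 20 mg/kg and 8239 with Rh2 added at 30 mg/kg. Bpgm, which makes the bisphosphoglycerate that lowers the oxygen affinity of hemoglobin, had 2540, 1924, 3347, 6711, 3479 and 832. Prdx2, a peroxidase found in many cells, stayed between 10268 and 13342.

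The clearance of free hemoglobin and heme was covered by 8 tested genes, of which 2 kept that order (22.6% of all tested genes). The median log2 ratio of the 8 genes between Dox and Control was 0.19. Lrp1, a receptor that takes up heme bound to hemopexin among other ligands, had 46164 counts in Control and 54578 to 82600 elsewhere, highest in Rh2-30 mg/kg. Cd163 had 4623 counts in Control, 6512 with Rh2 at 20 mg/kg and 9835 with Rh2 at 30 mg/kg, and, among the libraries with Dox, 4091 with Dox alone, 7612 with Rh2 added at 20 mg/kg and 6059 with Rh2 added at 30 mg/kg. Slc48a1, a heme transporter of lysosomes, had 1420, 1583, 1915, 2541, 1927 and 1280 counts and, as the globins, was highest in Dox and lowest in Rh2-30 mg/kg + Dox.

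Outside the set, the genes whose levels went most closely with the adult globin sum were looked for among 1990 genes whose mean was 100 counts or more, with a log2 span of at least 1. The first 5 by Pearson's r over the 6 libraries were Mkrn1 (0.994), Ube2l6 (0.993), Bnip3l (0.993), Slc25a37 (0.987) and Tent5c (0.983). These 6 points share library and scaling, and the r is a description. Mkrn1, a ubiquitin ligase, had 4682 counts in Control, 3719 with Rh2 at 20 mg/kg and 5518 with Rh2 at 30 mg/kg, and, among the libraries with Dox, 12414 with Dox alone, 7464 with Rh2 added at 20 mg/kg and 2440 with Rh2 added at 30 mg/kg. Ube2l6, a conjugating enzyme for ubiquitin-like proteins, had 1617, 1227, 2065, 7428, 4051 and 567. Tent5c, a poly(A) polymerase, had 2361, 1654, 3193, 10936, 5808 and 620 counts.

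**Figure D4:**
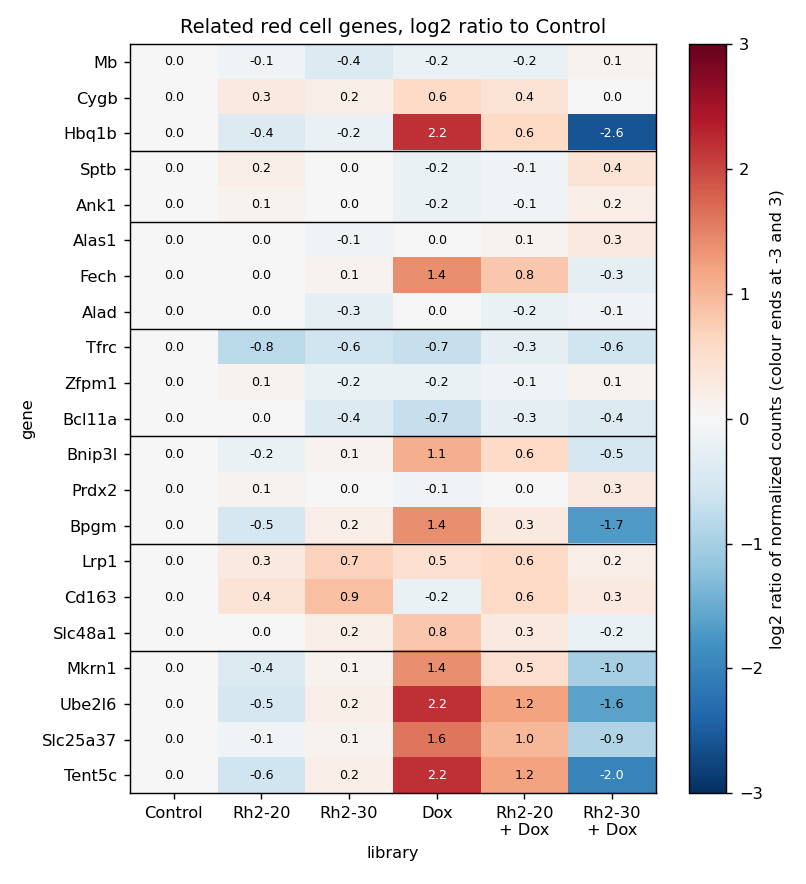
Log2 ratio to Control of normalized counts, by library, for the genes with the most counts in each of the 6 related lists (3 each, 2 for membrane genes, in the order other globins, membrane, heme synthesis, regulators, late red cell, clearance) and, in the last block, for the genes that went most closely with the adult globin sum and are not shown above. Hbq1b, Fech, Bnip3l, Bpgm and the last block are red in Dox and paler in Rh2-20 mg/kg + Dox, while Mb, Sptb, Ank1, Alas1, Alad and Prdx2 stay pale in all libraries.

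Markers of other blood cells were read beside the globins. All 12 platelet genes had counts in each library, and their summed level was 24.8 normalized CPM in Control, 22.9 with Rh2 at 20 mg/kg and 52.1 with Rh2 at 30 mg/kg, and, among the libraries with Dox, 181 with Dox alone, 265 with Rh2 added at 20 mg/kg and 20.9 with Rh2 added at 30 mg/kg. Platelet markers such as Itga2b, with 496 counts in Control and 3352 in Dox, and Tubb1, with 250 and 2903, were thus highest in Rh2-20 mg/kg + Dox, where the globins were second. Of the 12 genes, 11 had an unadjusted p under 0.05 with Dox in edgeR's quasi-likelihood test (10.1% of all tested genes), and 0 passed the adjusted threshold. Their sum was, like that of the globins, lowest in Rh2-30 mg/kg + Dox, as were 6 of the 12 genes (23.1% of all tested genes) but not Itga2b. The part of platelets in the red cell values was not tested.

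The neutrophil sum over 12 genes was lowest in Control (17.5) and next in Dox (20.1), and highest in Rh2-20 mg/kg + Dox (50.5), with Csf3r and S100a9 as the most abundant genes. The sum of 8 B cell markers such as Cd22 was 4.02 in Control, 4.33 with Rh2 at 20 mg/kg and 13.9 with Rh2 at 30 mg/kg, and, among the libraries with Dox, 3.09 with Dox alone, 3.66 with Rh2 added at 20 mg/kg and 1.52 with Rh2 added at 30 mg/kg. It was thus lowest in the library where the globins were lowest, but not highest where they were highest. Macrophage markers such as Mrc1 and Lyz2 summed to 263 in Rh2-30 mg/kg + Dox, 340 in Dox and 385 to 588 in the other 4. Endothelial markers such as Kdr and Pecam1 varied only between 1697 and 2036, and heart muscle markers such as Myh6 and Ryr2 between 19940 and 27710. None of these 5 lists was highest in Dox and lowest in Rh2-30 mg/kg + Dox.

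**Figure D5:**
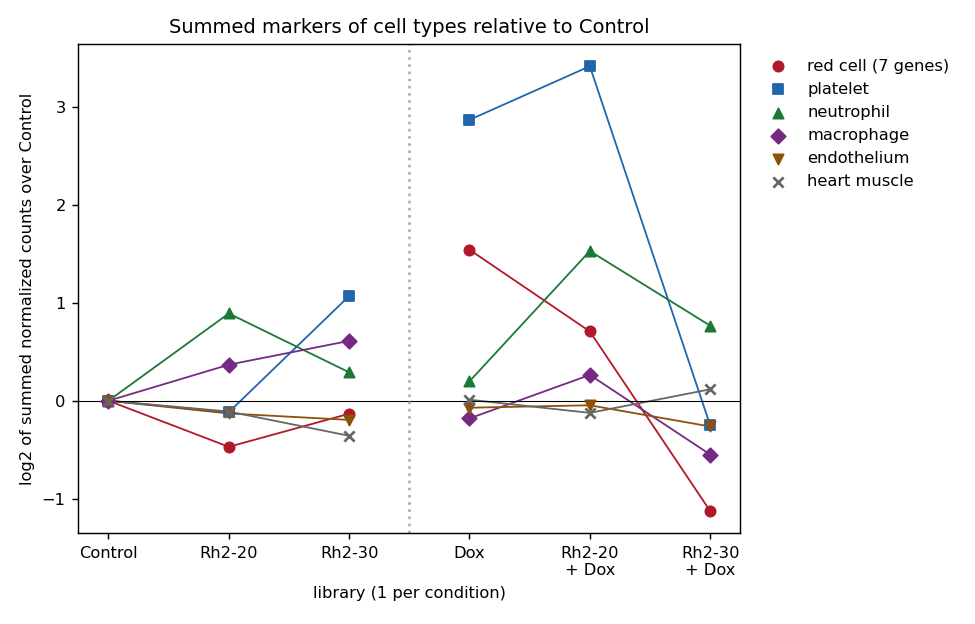
Log2 of the summed normalized counts of each marker list over its value in Control, by library, for the 7 red cell genes and for platelet, neutrophil, macrophage, endothelial and heart muscle markers. Red cell and platelet sums are both well above Control in Dox and Rh2-20 mg/kg + Dox and below it in Rh2-30 mg/kg + Dox, with the red cell sum highest in Dox and the platelet sum highest in Rh2-20 mg/kg + Dox.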

How the data were processed

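RNA from hearts was sequenced in 6 libraries, 1 for each condition, each from 5 pooled hearts, and the title of each sample gave its condition. Per the labels and the submitters' processing notes, libraries were made by SureSelect RNA capture, converted with bcl2fastq 2.20.0, trimmed with Trimmomatic, aligned to mm10 with HISAT2 2.1.0 and quantified with StringTie 2.1.3b. The authors' deposited read count per gene was a whole number without normalization and is the base of all values. The authors' deposited FPKM values, scaled to transcript length and mapped fragments, were used for levels between genes and as alternatives. The authors' deposited TPM values were not used. Depth was 86164411 to 90621002 counts per library.

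The 8 genes of the set and the lists of related genes and markers were chosen with earlier results of these data known. Counts were scaled by TMM in edgeR 4.0.16 (R 4.3.3) over the 18328 genes whose mean count was 10 or more. Ratios of single libraries used a prior count of 0.5 with exact conditional binomial 95% intervals (scipy 1.17.1), which cover counting error only. They carry no test, and 2-fold is the study's fold limit. Dox (3 libraries against 3) and Rh2 (4 against 2, Dox as a term) were compared by two-sided quasi-likelihood tests in edgeR, with p-values adjusted over all genes tested by Benjamini-Hochberg (threshold 0.05). These libraries differ in the other drug, so the spread in the tests includes that difference. The steps were tested on simulated counts with known changes. Named genes were the set, all related genes that passed a test, the 3 with the highest mean count in each related list, the 2 highest in each marker list, and the 5 that correlate best with the adult globin sum. Genes named outside this rule were chosen after their values were seen. Some genes that the rule names are not reported here. Alternatives were DESeq2 1.42.0 size factors and Wald test, total counts, no filter, a prior count of 2, limma 3.58.1 on log2(FPKM + 1) and log2(FPKM + 0.1), Rh2 dose as a term or no Dox term, and each library left out. A term for Dox by Rh2 dose was added after seeing the data. Transcripts came from GENCODE and gene positions and promoters from RefSeq (GRCm38.p6). Python 3.11.15 and matplotlib 3.10.9 made the figures.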

Additional observations from a re-analysis of the deposited data

Results flagged for a closer look

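The ratio between the library with Dox and the library without it had opposite signs at Rh2 30 mg/kg and at the lower doses for 6 of the 7 genes. Epb42 was the exception, and the counting intervals of the 6 left out 0 on both sides. The share of all tested genes with such a change of sign is not given here. In the pair at 30 mg/kg, 12.1% of all genes were at least 2-fold lower with Dox. Each dose has 1 library with Dox and 1 without, so the differences were not tested between libraries. For the adult globin sum the log2 Dox ratio was 1.51 without Rh2, 1.16 at 20 mg/kg and -0.94 at 30 mg/kg. The ratio at 30 mg/kg was thus 2.45 below that without Rh2 and 2.1 below that at 20 mg/kg. The corresponding differences were 2.39 and 2.13 for the alpha pair, 2.35 and 2.08 for Hba-a1, and 2.44 and 2.2 for Hba-a2. They were 2.55 and 2.03 for the beta pair, 2.58 and 2.07 for Hbb-bs, and 2.48 and 1.95 for Hbb-bt. The largest of these differences belonged to the genes outside the globins, 3.93 and 3.47 for Alas2 and 4.53 and 4.21 for Slc4a1.

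A Dox by Rh2 dose term, with dose as a number, was fitted across all genes with edgeR's quasi-likelihood test after these values were seen. It called 0 of 18328 genes, with 1738 at an unadjusted p under 0.05, and 0 of 56 related red cell genes, with 14 at an unadjusted p under 0.05. Fech, the last enzyme of heme synthesis, had an adjusted p of 0.519 in that fit.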

How the results depend on the processing

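The number of genes called with Dox, 5, was 425 with DESeq2's Wald test, 0 with limma on log2(FPKM + 1), 0 with Rh2 dose as a term and 0 to 14 with a library left out, while the number called with Rh2, 0, was 242 with the Wald test, which also called 1 related red cell gene. The cause was not tested. Of the 7 genes, the 1 that was 2-fold lower in Rh2-20 mg/kg than in Control became 0 with total counts and both FPKM settings, the 1 lower in Rh2-20 mg/kg + Dox than in Control became 0 and the 2 lower than in Dox became 1 with both FPKM settings, and the 4 lower in Rh2-30 mg/kg + Dox than in Rh2-30 mg/kg became 7 with total counts and with FPKM plus 0.1. The counts of 6 higher in Dox than in Control and of 7 lower in Rh2-30 mg/kg + Dox than in Dox or Control kept within 1.5 times under each setting run. Of 90 single ratios 0 changed sign with DESeq2 size factors or a prior count of 2, 8 with total counts and 3 with each FPKM setting, all between Rh2-30 mg/kg and Control. The largest shift, 3.02, was that of Epb42 in FPKM plus 1, where its level of at most 0.311 FPKM is under the added 1. Rh2 dose as a term sets each library with Dox against the one of the same dose, with 1598 genes at an unadjusted p under 0.05 in that fit. The labels carry no replicate numbers, so no replicate block was fitted. Depth limits Epb42, with 13 to 141 counts, and the embryonic globins, while for the other genes the lack of a second library is the limit.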
